A study of Mus musculus with 19 samples.

Results

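Expression of 6 genes for membrane adenylyl cyclases and 4 genes for subunits of protein kinase A (PKA) was followed in spiny projection neurons of the mouse striatum. They were chosen by symbol, as Adcy1, Adcy2, Adcy3, Adcy5, Adcy6, Adcy9, Prkaca, Prkacb, Prkar1b and Prkar2b, each matched to 1 Ensembl gene, and they make up 10 of the 39017 genes in the tables. All 10 were among the 13926 genes that had enough counts to be tested. The method was translating ribosome affinity purification (TRAP), in which a green fluorescent protein fused to ribosomal protein L10a (EGFP-L10a) tags the ribosomes of 1 cell type and the mRNA bound to them is pulled down and sequenced. The mice were female on a C56BL/6J background (spelled as in the labels), and every library came from an animal carrying 1 of the transgenes, so no library without a tag was compared. Old D1 mice were 2 years old and carried Drd1::EGFP-L10a, whose tag marks D1 neurons of the direct pathway. Young D1 mice carried the same transgene at 42 days. Old D2 mice were 2 years old and carried Drd2::EGFP-L10a, whose tag marks D2 neurons of the indirect pathway, and young D2 mice carried it at 42 days. Each of these 4 groups had 4 libraries, described in the design as biological replicates. The tag follows the expression of a dopamine receptor gene, so it marks whichever striatal cells use that gene.

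Adenylyl cyclases sit in the plasma membrane and turn ATP into cyclic AMP. In D1 neurons, dopamine acts on the D1 receptor, whose G protein Golf activates them. In D2 neurons the D2 receptor lowers cyclic AMP through Gi/o proteins, while adenosine receptors encoded by Adora2a raise it. Cyclic AMP binds the regulatory subunits of PKA and frees the catalytic subunits, which phosphorylate ion channels, transcription factors and the striatal phosphoprotein encoded by Ppp1r1b. Adcy5 encodes the cyclase known as the main one of the striatum.

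The libraries held between 27484038 and 70903004 fragments assigned to genes. Between 10364 and 13694 genes had a count in the old D1 libraries, against 12770 to 14992 in the other 12, and the mean fragment was 151 to 164 bases long in old D1 libraries, against 170.3 to 195 bases elsewhere. The closing part of the sequencing index in the old D1 libraries was used by no other group, and that in the young D2 libraries by no other group, while young D1 and old D2 libraries had another in common. Index and group therefore cannot be told apart in any contrast for age or between D1 and D2 neurons. The 7 D1 marker genes summed to 4828 to 7693 TPM (transcript abundance scaled by length and library total) in old D1, 2634 to 3461 TPM in young D1, 439 to 689 TPM in old D2 and 144 to 170 TPM in young D2 libraries. The 5 D2 marker genes summed to 105 to 549 TPM in old D1 and 106 to 225 TPM in young D1, against 5623 to 11687 TPM in old D2 and 7781 to 9004 TPM in young D2. The labelled cell types therefore showed their defining markers, and the summed D1 markers in D2 libraries were higher at 2 years without overlap. Markers shared by all spiny projection neurons (5 genes) summed to 3524 to 3716 TPM in old D1, against 4796 to 5978 TPM in young D1 libraries, and to 6079 to 6593 TPM in old D2, against 6809 to 8297 TPM in young D2 libraries. These sums were lower at 2 years without overlap in both neuron types, and lower in D1 than in D2 libraries at both ages, also without overlap. Ppp1r1b is among these genes, and its own fall in old D1, given below, makes up much of the lower sum there. The part of these markers in the results below was not tested. Astrocyte markers (8 genes, none at 0 in a whole group) summed to 35.0 to 48.0 TPM in old D2, against 10.6 to 17.96 TPM in young D2 libraries, without overlap, and overlapped between old and young D1 libraries (20.9 to 60.9 TPM, against 18.7 to 84.7 TPM). Summed markers of oligodendrocytes, microglia, endothelial and mural cells, cholinergic neurons, other interneurons and glutamatergic neurons overlapped between ages in both neuron types. Fewer cells of a type and less RNA per cell cannot be told apart in such pools.

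The 10 genes fell into 2 tiers of abundance, which TPM allows to be compared because it is scaled by transcript length. Prkacb, Adcy5, Prkar1b, Prkar2b and Prkaca averaged 465, 215, 175, 139 and 121 TPM over the 16 libraries. Adcy1, Adcy3, Adcy9, Adcy2 and Adcy6 averaged 16.3, 13.1, 11.9, 2.86 and 0.31 TPM. Prkacb was above Adcy5 in 4 of 4 libraries of every group, without overlap of their TPM ranges. Below Prkacb the neighbours were less distinct. The ranges of Adcy5 and Prkar1b overlapped in all groups except young D1, and those of Prkar1b and Prkaca overlapped in all groups except old D2. In old D1 libraries Prkaca was the lowest of the 5 abundant genes, below Prkar2b in 4 of 4 libraries without overlap, whereas in the other 3 groups their ranges overlapped. Among the scarcer cyclases, neighbours in the order of means from Adcy1, Adcy3 and Adcy9 had overlapping ranges in every group. The gap between the tiers held except in old D1 libraries, where the lowest Prkaca value lay among the values of Adcy9 and Adcy3.

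**Figure D1:**
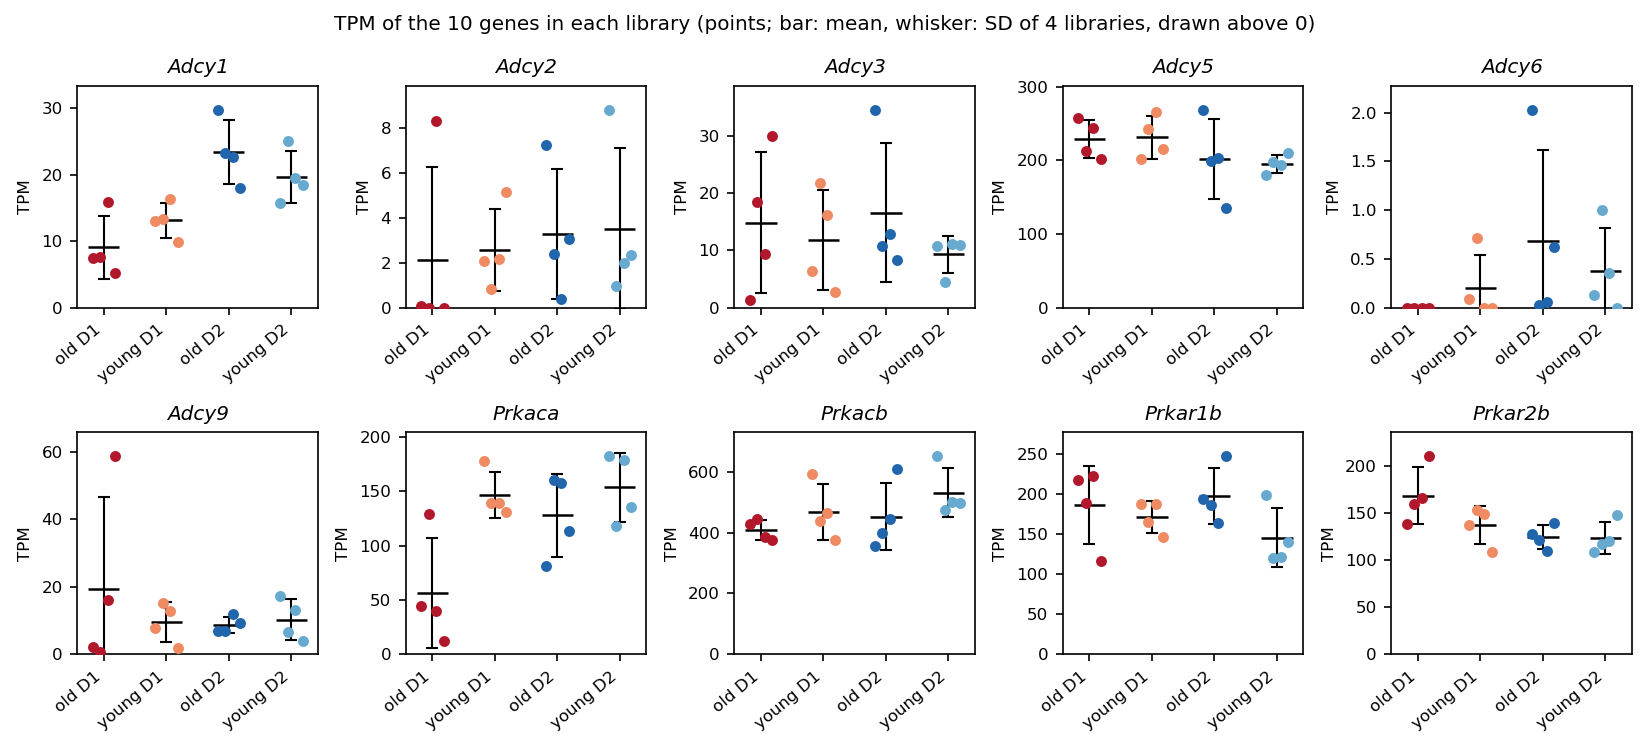
TPM of the 10 genes in each library on linear axes that start at 0 and differ between genes, with the groups in the order old D1, young D1, old D2 and young D2; points are libraries, horizontal bars are group means and whiskers are the SD of 4 libraries, cut off at 0. Prkaca is spread from 11.7 to 129 TPM in old D1, and Adcy6 is at 0 in all 4 old D1 libraries.

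Adcy5 carried most of the adenylyl cyclase mRNA. Its share of the summed TPM of all 10 cyclase genes was 68.3% to 95.9% in single libraries, with a mean of 82.9%. The summed cyclase TPM was 240.2 to 296 in old D1, 231 to 316 in young D1, 175 to 349 in old D2 and 234 to 246 in young D2 libraries, so the total did not separate the groups. Adcy4, Adcy7, Adcy8 and Adcy10, the cyclases outside the chosen set, were not among the tested genes and reached at most 1.86 TPM, for Adcy7 in 1 young D1 library. Adcy10, the soluble cyclase, was at 0 in all 16 libraries. Among PKA subunits Prkacb held 31.7% to 43.6% of the summed TPM, and Prkar1a, a regulatory subunit used in most tissues, held 15.8% to 37.3%.

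**Figure D2:**
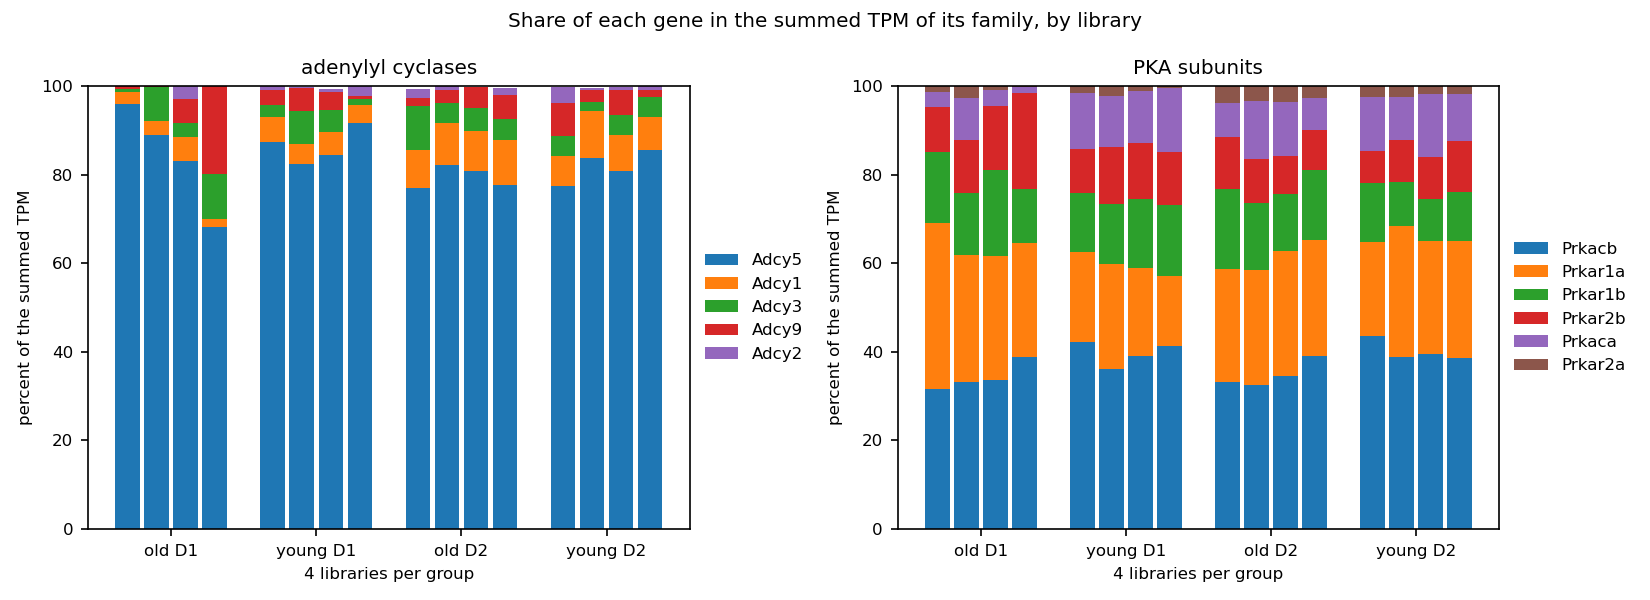
Share of summed TPM that each gene contributed, in percent, for adenylyl cyclases and for PKA subunits, as stacked bars for each library by group, old before young; the white rest of a cyclase bar is held by cyclases that are not drawn. Adcy5 fills 68.3% to 95.9% of every cyclase bar, and Prkacb fills 31.7% to 43.6% of every PKA bar.

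The 5 contrasts were tested over all 13926 genes with edgeR's quasi-likelihood test, with Benjamini-Hochberg adjustment, and genes with an adjusted p under 0.05 are named as called. Between old and young D1 neurons 10.8% of all genes were called (5.39% higher and 5.44% lower in old D1), and 1 of the 10 genes was, Prkaca, which was lower in old D1. At an unadjusted p under 0.05 stood 26.9% of all genes and 3 of the 10. Between old and young D2 neurons 0.079% of all genes were called (0.0646% higher and 0.0144% lower in old D2) and none of the 10, while 5.75% of all genes and none of the 10 had an unadjusted p under 0.05. DESeq2 likewise called none of the 10 in that contrast. The difference between the age changes of D1 and D2 neurons was called for 1.77% of all genes (0.926% positive and 0.84% negative) and for none of the 10. At an unadjusted p under 0.05 it held 16.9% of all genes and 2 of the 10, Adcy1 and Adcy6. Between D1 and D2 neurons 0.409% of all genes were called at 42 days (0.201% higher and 0.208% lower in D1) and none of the 10, with 6.01% of all genes and none of the 10 under an unadjusted 0.05. At 2 years 9.6% of all genes were called (5.02% higher and 4.58% lower in D1) and 1 of the 10, Adcy1, which was lower in D1, with 25.4% of all genes and 4 of the 10 under an unadjusted 0.05. Both shares of called members, 1 in 10, lie close to the share over all genes. TPM did not overlap between old and young D1 libraries for 1 of the 10 genes, against 13.8% of all genes, and between old and young D2 libraries for none, against 7.07%. Between D1 and D2 libraries all 10 genes overlapped at 42 days, when 6.35% of all genes did not, and 2 did not at 2 years, Adcy1 and Adcy6, against 14.8% of all. The median log2 fold change of the 10 genes was -0.16 for age in D1 neurons, against -0.06 over all genes, and -0.04 for age in D2 neurons, against 0.01. For D1 over D2 it was -0.01 at 42 days, against 0.02 over all genes, and 0.00 at 2 years, against -0.07. Old D1 libraries enter the age contrast in D1 neurons, the difference of age changes and the D1 to D2 contrast at 2 years, and these 3 contrasts hold nearly all of the calls over all genes. P-values here set each difference against the spread between these libraries, and index cannot be told apart from group.

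**Figure D3:**
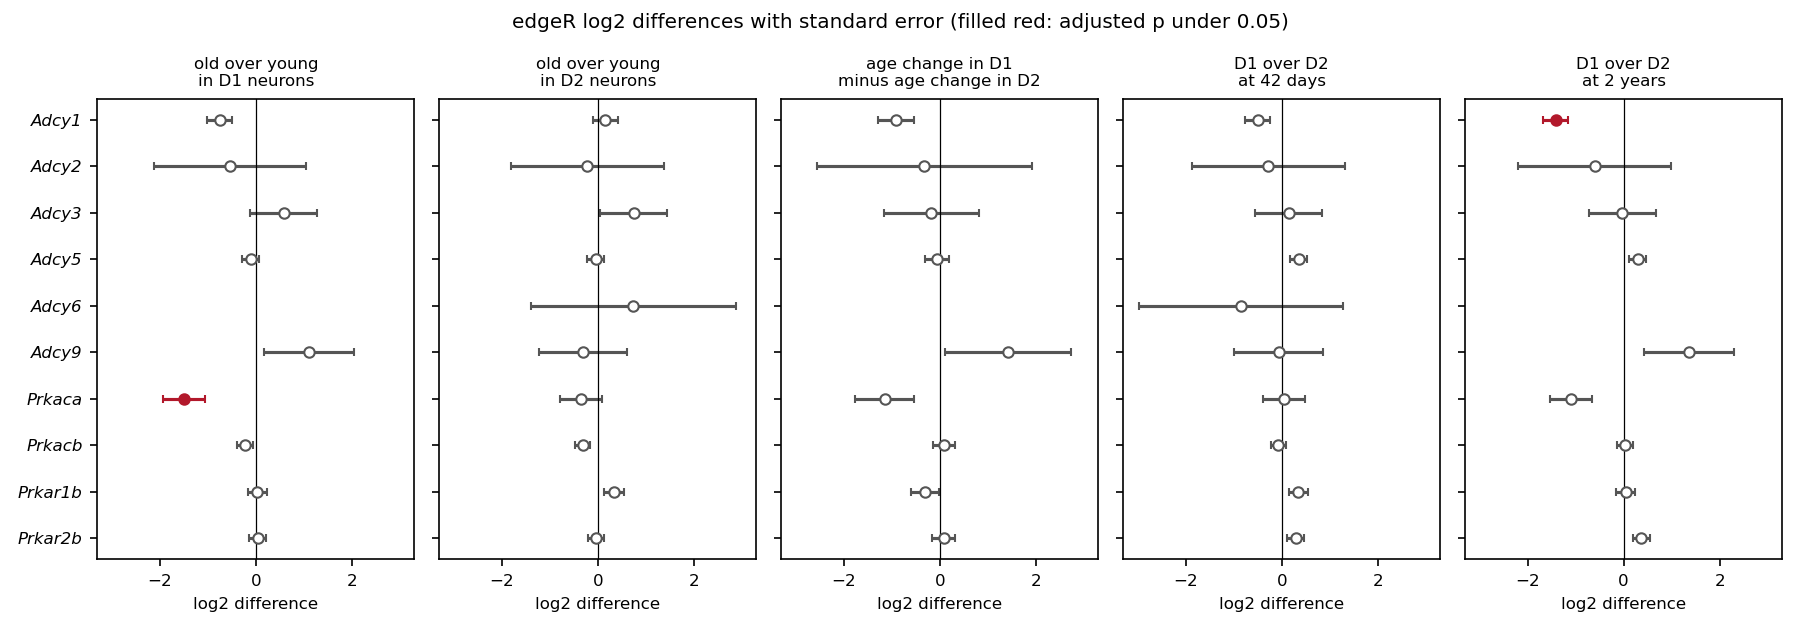
Log2 fold change of each of the 10 genes with its standard error (whiskers) in the 5 contrasts; genes with an adjusted p under 0.05 are filled red and the others are open, and values to the right of 0 are higher in the first-named group. Prkaca is left of 0 for age in D1 neurons and Adcy1 is left of 0 for D1 over D2 at 2 years, and Adcy6 is not drawn in the contrasts that use the old D1 libraries, which are at 0.

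Adcy5 was steady among the cyclases. This gene (ENSMUSG00000022840, chr16:35154877-35305738, plus strand) encodes a cyclase that Golf and forskolin activate and that Gi proteins and calcium inhibit. Its level was 257.6, 213, 245 and 202.4 TPM in the old D1 libraries, against 201.8, 242, 266 and 215 TPM in the young D1 libraries. It was 269, 199, 203.9 and 136 TPM in the old D2 libraries, against 181, 198, 194 and 210.5 TPM in the young D2 libraries. The ranges overlapped in every contrast. The log2 fold change with age was -0.10 (95% interval -0.45 to 0.24) in D1 neurons and -0.04 (-0.39 to 0.31) in D2 neurons. Adcy5 was 0.35 higher in D1 than in D2 neurons at 42 days on the log2 scale (SE 0.18, edgeR adjusted p = 0.87) and 0.29 higher at 2 years (SE 0.18, adjusted p = 0.33), neither of which passed the test. Its transcript has a GC content of 59.5%, the highest of the 10, and removing the trend over GC content and length turned its age change in D1 neurons to 1.04 (adjusted p = 0.012).

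Adcy1 separated D1 from D2 neurons at 2 years. It lies at chr11:7063489-7178506 on the plus strand (ENSMUSG00000020431) and encodes a cyclase stimulated by calcium and calmodulin, known for its part in synaptic plasticity. Its level was 7.43, 7.67, 15.9 and 5.27 TPM in the old D1 libraries, against 29.8, 23.3, 22.6 and 17.97 TPM in the old D2 libraries. All 4 old D1 values lay below all 4 old D2 values. The log2 fold change was -1.42 (SE 0.26, edgeR adjusted p = 0.0025), which is 2.67-fold lower in D1. In the same libraries the summed markers shared by all spiny projection neurons were lower in old D1, as they were in young D1 against young D2 libraries. The 6 oligodendrocyte markers summed to 75.6 to 190.5 TPM in old D1, against 247 to 353 TPM in old D2. The 3 matched markers of cholinergic neurons summed to 0 to 1.86 TPM in old D1, with Lhx8 at 0, against 10.6 to 25.03 TPM in old D2. The part of these markers in the difference was not tested. At 42 days the libraries had 13.0, 13.3, 16.4 and 9.92 TPM in young D1, against 15.7, 25.1, 19.6 and 18.4 TPM in young D2. These ranges overlapped through 1 library on each side, and the log2 fold change of -0.50 (SE 0.26, adjusted p = 0.89) was not called. Within D1 neurons 3 of the 4 old libraries lay below every young one and the other lay among them, with a log2 fold change of -0.75 (SE 0.26, adjusted p = 0.070). That value passed with DESeq2 (adjusted p = 0.020) and without old D1 replicate 3, the high library (-1.004, adjusted p = 0.015). In D2 neurons the change was 0.16 (SE 0.26), and the difference between the age changes, -0.91 (SE 0.37, adjusted p = 0.20), was not called. Of 26 alternative settings for the contrast at 2 years, 25 kept the call, and a GC and length trend set by genes with a mean log2 CPM (counts scaled by library size) over 0 ended it (-0.70, adjusted p = 0.098).

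Adcy3, Adcy9 and Adcy2 varied from library to library more than between groups. Adcy3 (ENSMUSG00000020654, chr12:4133103-4213525, plus strand) encodes a cyclase known from olfactory neurons and from primary cilia. It had 1.38, 18.4, 9.44 and 30.05 TPM in old D1 against 6.42, 21.7, 16.2 and 2.81 TPM in young D1 libraries, and 34.6, 10.7, 12.8 and 8.37 TPM in old D2 against 10.7, 4.52, 11.03 and 10.95 TPM in young D2 libraries. The groups overlapped, with log2 fold changes of 0.58 (SE 0.70) for age in D1 and 0.75 (SE 0.70) for age in D2. The gene overlaps Cenpo on the opposite strand over 17522 bases, and whether the counting used strand is not given in the sources used here. Cenpo averaged 1.38 TPM. Adcy9 (ENSMUSG00000005580, chr16:4287529-4420498, minus strand), a widely expressed cyclase that responds weakly to forskolin, had 2.03, 0.61, 16.1 and 58.7 TPM in old D1 and 1.88 to 15.2 TPM in young D1 libraries. Its lowest and its highest values both came from old D1 libraries. D2 neurons had 6.79 to 11.9 TPM of Adcy9 in old libraries and 3.85 to 17.1 TPM in young ones. Its log2 fold change was 1.11 (SE 0.93) for age in D1 neurons and 1.35 (SE 0.94) for D1 over D2 at 2 years, neither called (edgeR adjusted p = 0.49 and 0.40). A processed pseudogene, Gm6142, lies within Adcy9 on the same strand with a mean of 4.06 TPM, so the split of reads between them is uncertain.

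Adcy2 (ENSMUSG00000021536, chr13:68620043-68999541, minus strand) encodes a cyclase that calcium does not regulate and that G protein beta-gamma subunits can stimulate. The old D1 libraries had 0.09, 0, 8.31 and 0 TPM, against 2.09, 0.84, 2.17 and 5.15 TPM in young D1 libraries. A single old D1 library carried nearly all of that group's Adcy2. With it, the log2 fold change with age was -0.54 (SE 1.59, edgeR adjusted p = 0.88), and without it, -6.62 (adjusted p = 0.019). The D1 to D2 contrast at 2 years moved the same way, to -6.68 (adjusted p = 0.020) without that library. Old D2 libraries had 0.39 to 7.25 TPM and young D2 libraries 0.95 to 8.80 TPM.

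Adcy6 was at the edge of detection. This close relative of Adcy5 (ENSMUSG00000022994, chr15:98589973-98610076, minus strand) had no count in any of the 4 old D1 libraries. Young D1 libraries had 0.09, 0.71, 0 and 0 TPM, old D2 libraries 2.03, 0.03, 0.06 and 0.62 TPM, and young D2 libraries 0.13, 1.0, 0.36 and 0 TPM. Against a floor of 3 counts over the group, Adcy6 was at least 28.6-fold lower in old D1 than in young D1 libraries, which held 100 counts together, 88 of them in replicate 2. Without that library the bound was 4.36-fold. Adcy6 was at least 86.2-fold lower in old D1 than in old D2 libraries, which held 311 counts, 247 of them in replicate 1. Without old D2 replicate 1 that bound was 22.8-fold, and without old D2 replicate 3 it was 131-fold. These bounds cover counting error only. Neither contrast was called by edgeR (adjusted p = 0.094 and 0.064), and both were called by DESeq2 (adjusted p = 0.045 and 0.011).

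The 10 genes differed in how much replicate libraries varied. The biological coefficient of variation, the replicate spread that edgeR estimates beyond counting error, was 21.3% for Prkacb, 21.7% for Prkar2b, 22.2% for Adcy5, 24.5% for Prkar1b and 29.1% for Adcy1. It was 44.2% for Prkaca, 68.8% for Adcy3, 86.6% for Adcy9, 142% for Adcy2 and 191% for Adcy6, against 97.8% for the common value over all genes. The 5 genes with the smallest spread include 4 of the 5 abundant ones.

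Prkaca was the PKA gene that passed a test at the level of the whole gene. It encodes the catalytic subunit alpha (ENSMUSG00000005469, chr8:83972993-83996443, plus strand), found in most tissues. Its level was 44.0, 129, 39.7 and 11.7 TPM in the old D1 libraries, against 178, 139, 139 and 131 TPM in the young D1 libraries. Every old D1 value lay below every young D1 value, although the highest old value, 129 TPM, was next to the lowest young one. The log2 fold change was -1.49 (SE 0.45, edgeR adjusted p = 0.037), or 2.82-fold lower in old D1. Without old D1 replicate 2, the high library, the value was -2.33 (adjusted p = 0.0012). Only 16 of 26 alternative settings kept the call. It was lost when only the D1 groups were fitted (-1.52, adjusted p = 0.17) and when the GC and length trend was removed (-0.85, adjusted p = 0.22). It was also lost without old D1 replicate 1 (adjusted p = 0.082) or 3 (0.073), and without young D1 replicate 1 (0.079), 2 (0.064), 3 (0.054) or 4 (0.071), by edgeR in each case.

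In D2 neurons Prkaca overlapped between ages, with 80.8, 160.3, 157 and 113 TPM in old libraries against 182, 118, 179 and 136 TPM in young libraries. The log2 fold change was -0.35 (95% interval -1.21 to 0.51). The difference between the age changes was -1.14 (SE 0.62, edgeR adjusted p = 0.37), so the fall in D1 neurons was not shown to differ from the change in D2 neurons. Without old D1 replicate 2 that difference was -1.98 (adjusted p = 0.045). D1 over D2 was 0.04 (SE 0.44) at 42 days and -1.10 (SE 0.44, adjusted p = 0.12) at 2 years, and that last value was called without old D1 replicate 2 (-1.93, adjusted p = 0.0034).

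Prkacb encodes the catalytic subunit beta, abundant in brain (ENSMUSG00000005034, chr3:146729574-146812990, minus strand). The whole gene had 427, 446, 384 and 375 TPM in old D1 libraries, against 592, 436, 465 and 377 TPM in young D1 libraries. It had 356, 400.0, 444 and 609.8 TPM in old D2 libraries, against 651, 475, 501 and 496 TPM in young D2 libraries. The ranges overlapped within each age and within each cell type. The log2 fold change with age was -0.22 (95% interval -0.55 to 0.10) in D1 neurons and -0.32 (-0.64 to 0.00) in D2 neurons, and neither was called by edgeR (adjusted p = 0.41 and 0.96). Prkacb exceeded Prkaca in every library: the ratio of their TPM was 9.71, 3.45, 9.67 and 32.2 in old D1 libraries, against 2.87 to 3.34 in young D1 libraries. In D2 neurons that ratio was 2.49 to 5.39 in old libraries and 2.80 to 4.04 in young ones.

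Regulatory subunits hold the kinase inactive and tether it to anchoring proteins. Prkar1b encodes the type I beta subunit, found mainly in neurons (ENSMUSG00000025855, chr5:139017306-139150001, minus strand). It had 217, 189, 222 and 116 TPM in old D1 against 187, 164, 188 and 146 TPM in young D1 libraries, and 194, 186, 164 and 247 TPM in old D2 against 199, 121, 121 and 141 TPM in young D2 libraries. The ranges overlapped and the log2 fold changes with age were 0.03 (95% interval -0.37 to 0.44) in D1 and 0.34 (-0.06 to 0.75) in D2 neurons. Prkar2b encodes the type II beta subunit, which anchoring proteins hold near neuronal membranes (ENSMUSG00000002997, chr12:31958476-32061296, minus strand). It had 138, 160.0, 166 and 211 TPM in old D1 against 137, 154, 149 and 109 TPM in young D1 libraries, and 110.0 to 139.8 TPM in old D2 against 108 to 148 TPM in young D2 libraries. Its log2 fold changes with age were 0.04 (-0.30 to 0.37) in D1 and -0.04 (-0.38 to 0.29) in D2 neurons. D1 over D2 was 0.29 (SE 0.17) at 42 days and 0.37 (SE 0.17) at 2 years, neither called by edgeR (adjusted p = 0.99 and 0.19). The other regulatory genes were not called in any contrast: Prkar1a averaged 363 ± 109 TPM in old D1 and 237 ± 67.1 TPM in young D1 libraries (SD, n = 4 each), with a log2 fold change of 0.56 (edgeR adjusted p = 0.083), and Prkar2a averaged 17.0 ± 13.7 and 16.9 ± 10.4 TPM in the same groups.

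Beneath the level of the whole gene, the isoforms of Prkacb, which start at separate first exons, differed between the groups. The first exons decide the amino terminus of the catalytic subunit, and the coding sequences from the start codon are shown because they are what sets the isoforms apart. Bases in capitals lie in the isoform's own first coding exon, and bases in lower case lie in the exons after it, which the 3 Prkacb isoforms share. The sequences were read from GENCODE M21 transcripts on mm10 (GRCm38). Prkaca-201, the counterpart in the other catalytic gene, is given for comparison, and its bases in lower case come from the exons of Prkaca.
Prkacb-202: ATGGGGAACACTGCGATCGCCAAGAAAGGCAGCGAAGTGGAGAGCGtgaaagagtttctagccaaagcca
Prkacb-203: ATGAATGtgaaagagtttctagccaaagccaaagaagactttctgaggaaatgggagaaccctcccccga
Prkacb-204: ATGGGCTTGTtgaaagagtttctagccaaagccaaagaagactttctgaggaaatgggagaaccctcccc
Prkaca-201: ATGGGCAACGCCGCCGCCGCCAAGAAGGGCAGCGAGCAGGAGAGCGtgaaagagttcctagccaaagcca
Prkacb-202 begins with an exon at chr3:146812638-146812960 that holds 46 coding bases. Prkacb-203 begins at chr3:146769934-146770261 with 7 coding bases of its own, and Prkacb-204 begins at chr3:146770516-146770781 with 10. The start sites of Prkacb-202 and Prkacb-203 are 42.7 kb apart, and 9 exons are shared. The first exon of Prkaca-201, chr8:83972993-83973232, also has 46 coding bases, of which 36 (78.3%) match those of Prkacb-202 at the same place.

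Nearly all Prkacb mRNA in old D1 libraries was assigned to Prkacb-202. Its share of the gene's TPM was 98.6%, 98.9%, 93.7% and 98.3% in old D1 libraries, against 54.4%, 58.0%, 81.1% and 51.6% in young D1 libraries. Old D2 libraries had 58.4%, 53.3%, 44.0% and 62.7%, and young D2 libraries had 31.8%, 54.5%, 44.1% and 63.2%. The old D1 shares lay above those of all other 12 libraries. An exact permutation test of old against young D1 gave p = 0.029, the smallest that 4 against 4 libraries allow, and 0.14 after adjustment over 72 such tests. The level of Prkacb-202 itself was 398 ± 39.4 TPM in old D1 and 287 ± 79.8 TPM in young D1 libraries (SD, n = 4 each), with a log2 fold change of 0.30 that was not called. The change of share came with lower levels of the other isoforms.

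Prkacb-203 had 6.15, 4.94, 22.2 and 5.02 TPM in old D1 libraries, against 199, 24.4, 78.3 and 68.7 TPM in young D1 libraries. The highest old value lay just below the lowest young value. In an edgeR fit over 28914 isoforms, in which 4.2% were called for age in D1 neurons, the log2 fold change was -3.44 (SE 0.63, adjusted p = 0.0056). Against old D2 libraries, which had 105, 106, 217 and 104 TPM, it was -3.82 (adjusted p = 0.0029), in a contrast that called 4.23% of all isoforms. Prkacb-204 had 0, 0, 1.21 and 1.10 TPM in old D1 libraries, against 67.6, 156, 9.18 and 113 TPM in young D1 libraries, without overlap. Its log2 fold change was -7.41 (SE 1.64, adjusted p = 0.020) for age in D1 neurons and -6.82 (adjusted p = 0.027) for D1 over D2 at 2 years. Neither isoform was called for age in D2 neurons (0.0138% of all isoforms called) or for D1 over D2 at 42 days (0.104%). The difference of the age changes was -3.61 for Prkacb-203 (edgeR adjusted p = 0.051) and -5.99 for Prkacb-204 (adjusted p = 0.13). Neither passed the test, while 0.996% of all isoforms did. Fitting only the D1 groups ended the calls for age in D1 neurons of Prkacb-203 (adjusted p = 0.073) and Prkacb-204 (adjusted p = 0.10).

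**Figure D4:**
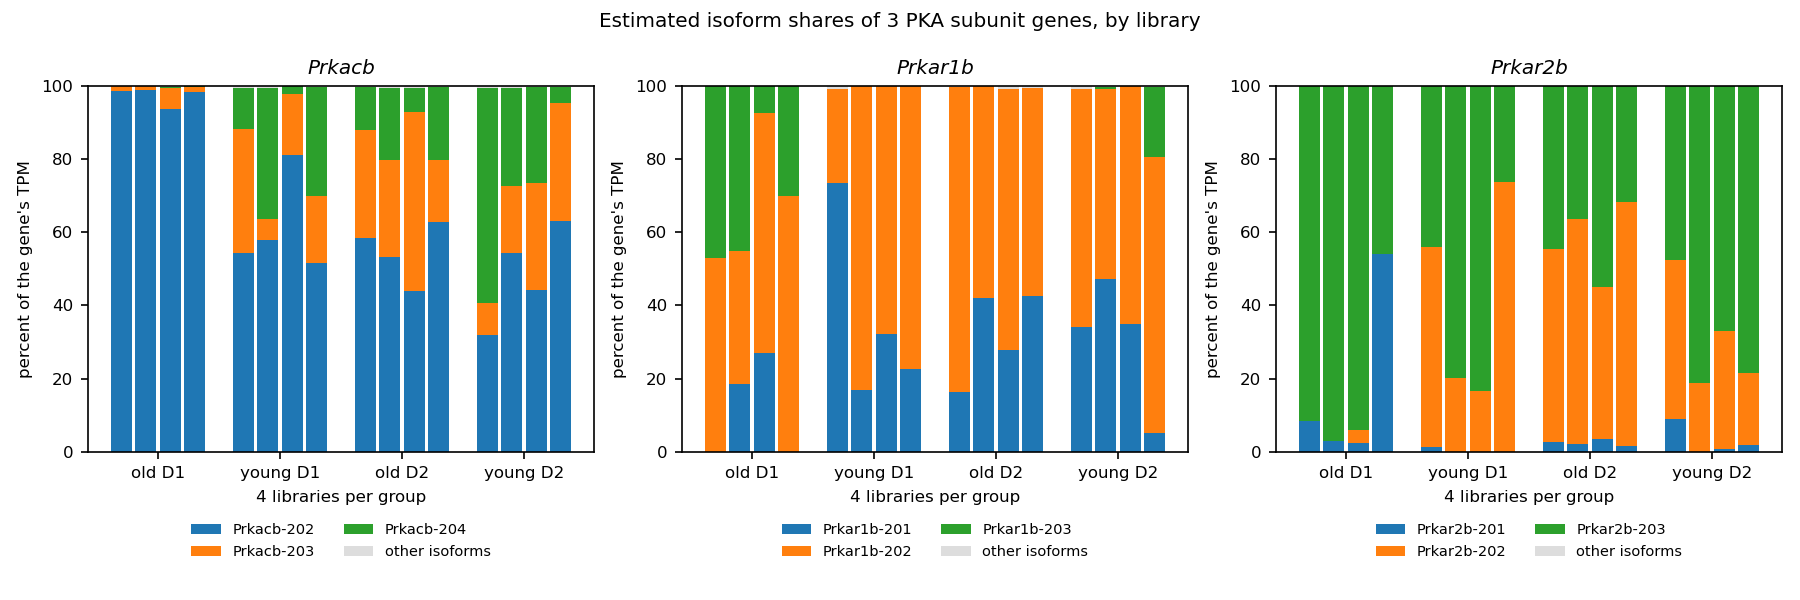
Share of the gene's TPM assigned to each isoform of Prkacb, Prkar1b and Prkar2b, in percent, in each library by group, old before young and D1 before D2. Prkacb-202 takes 93.7% to 98.9% in the 4 old D1 libraries, against 31.8% to 81.1% in the other 12.

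An isoform of Prkar1b was also called for age in D1 neurons while the whole gene was not. Prkar1b-203, whose first exon is at chr5:139130280-139130386, had 102, 85.03, 16.3 and 35.1 TPM in old D1 libraries and 0 in all 4 young D1 libraries. The counts assigned to Prkar1b-203 summed to 11433 in old D1 and to 0 in young D1 libraries (edgeR adjusted p = 0.019). Set against a floor of 3 counts over the group, that is 4438-fold. That value covers counting error only and not the assignment of reads between isoforms, so it is no lower bound. The other groups were at 0 or close to it, apart from 1 young D2 library with 26.98 TPM. Prkar1b-203 had enough counts to be tested only through the old D1 libraries, where it was high. Its adjusted p-values are therefore no support by themselves. The call was lost without young D1 replicate 1 or old D2 replicate 2, libraries that share the fit. For D1 over D2 at 2 years the adjusted p was 0.024, and it was lost without each of the old D2 libraries. Prkar2b-202 made up 0%, 0%, 3.75% and 0% of Prkar2b in old D1 libraries, against 54.8%, 20.2%, 16.8% and 73.7% in young D1 libraries. Old D2 libraries had 52.9%, 61.5%, 41.7% and 66.7%, and young D2 libraries had 43.5%, 18.8%, 32.3% and 19.7%. Every old D1 share lay below those of the other 12 libraries. The level of Prkar2b-202 was not called by edgeR for age in D1 neurons (adjusted p = 0.098) or for D1 over D2 at 2 years (adjusted p = 0.093), and its shares did not pass a two-sided exact permutation test in either contrast (adjusted p = 0.137 over 72 tests). Prkar2b-203 took 91.7%, 97.1%, 93.9% and 45.8% in old D1 libraries, and in the fourth of them Prkar2b-201 took 54.2%.

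Shares were compared for the 18 isoforms of the 10 genes with a mean share of at least 10% in any group. They did not overlap between old and young D1 libraries for 7, against 11.1% of all such isoforms. Between old and young D2 libraries none was without overlap, against 2.75%. Between D1 and D2 none of the 18 was without overlap at 42 days, against 2.34% of all, and 8 were at 2 years, against 13.4%. Some of these isoforms entered the list only through the group where they were high. Prkar1b-203 (mean share 32.3%) and Prkar2b-201 (16.9%), both among the 7, reached 10% in old D1 libraries only. Among the 8 this holds for Prkar1b-203 and, through old D2 libraries, for Adcy9-203 (15.4%). Shares of 1 gene's isoforms sum to a whole and are not independent of each other. Isoform values are RSEM estimates from reads that mostly fall in shared exons. The first exon of Prkacb-202 has a GC content of 73.4% and those of Prkacb-203 and Prkacb-204 have 43.9% and 44.4%, while Prkacb-202 also runs 291 bases farther at its 3′ end, where the GC content is 30.2%. For Prkar2b the isoform that was nearly missing from old D1 libraries, Prkar2b-202, has a first exon with 74.0% GC, against 54.7% for Prkar2b-203. The first exon of Prkar2b-201 has 74.7%, and its share was higher in old D1 (2.33% to 54.2%) than in young D1 libraries (0% to 1.19%). For Prkar1b the first exons have 81.9% in Prkar1b-201, 55.5% in Prkar1b-202 and 53.3% in Prkar1b-203. The part of fragment length or GC content in the isoform estimates was not tested.

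Fold changes that involve the old D1 libraries followed GC content over all genes. Among genes with a mean CPM of at least 32, the median log2 fold change of old over young D1 was 0.51 for transcripts under 45% GC, 0.31 from 45% to 50%, -0.06 from 50% to 55%, -0.69 from 55% to 60% and -1.001 from 60%. For old D1 over old D2 the medians of the same bands were 0.47, 0.29, -0.06, -0.58 and -0.92. The trend therefore appeared in the old D1 libraries against both groups, and its cause was not tested. Set against the medians for age in D1 neurons, the 10 genes fall on both sides. Prkar2b, with a GC content of 40.2%, and Prkacb, with 45.4%, had fold changes of 0.04 and -0.22, below the median of their GC band. Adcy5, with 59.5%, had -0.10, above its band. Prkar1b, with 54.8% over its main isoform, had 0.03, and Prkaca, with 54.9%, had -1.49. The first exons of these isoforms have 55.5% in Prkar1b-202 and 80.8% in Prkaca-201. The part of GC content in the fold changes of the 10 genes was not tested. Once that trend over GC and length was taken out, Prkar1b was called higher in old D1 (0.71, edgeR adjusted p = 0.043), as was Adcy5, while Prkaca was not called. Adcy5 was then also called higher in D1 than in D2 neurons at 2 years (1.59, adjusted p = 0.00058). That removal moved the median of all genes for age in D1 neurons by 0.18. In the same contrast Prkar1b was called in 2 of 26 alternative settings and Adcy5 in 3. The cutoff for the genes that set the trend was chosen after seeing the data.

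**Figure D5:**
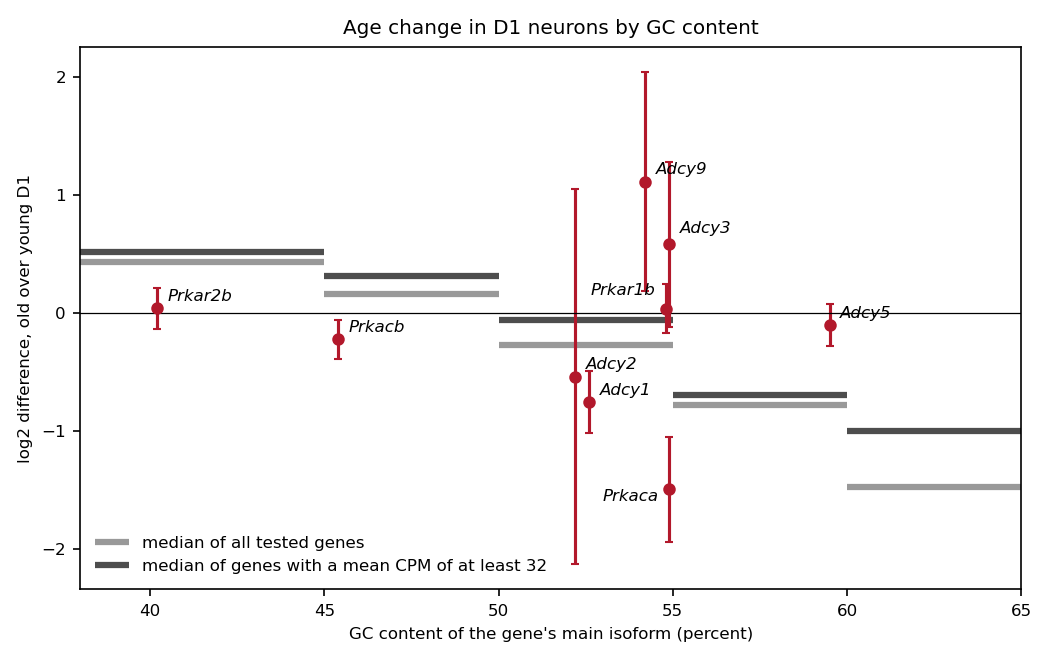
Log2 fold change of old over young D1 neurons against the GC content of the main isoform in percent; red points are the named genes with their standard error, and horizontal lines are the medians of GC bands, light grey over all tested genes and dark grey over genes with a mean CPM of at least 32. The dark grey medians run from 0.51 under 45% GC to -1.001 from 60%, Adcy5 lies above both lines of its band and Prkaca far below both; Adcy6 is not drawn.

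Other genes of the cyclic AMP pathway were taken from a list of 66, of which 62 were tested. The list was chosen with earlier results of these data known, so its counts beside the shares over all genes are description only. For age in D1 neurons 9 were called higher and 7 lower in old D1, against 10.8% of all genes called, with a median log2 fold change of 0.18 against -0.06 over all genes. Upstream of the cyclases, Gnal, the alpha subunit of Golf, was higher (1369 ± 325 TPM in old D1, against 765 ± 168 TPM in young D1; SD, n = 4 each), with a log2 fold change of 0.78 (edgeR adjusted p = 0.0061). Its partner Gng7, the gamma subunit that pairs with Golf in the striatum, was lower, with 555 ± 153 TPM in old D1 and 1764 ± 667 TPM in young D1 libraries (-1.26, adjusted p = 0.00059). Gnb2 (-2.01) and Gnai2 (-2.33), a beta subunit and an inhibitory alpha subunit, were also lower.

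At the kinase itself Pkia, an inhibitor that binds free catalytic subunits, was higher in old D1: 447, 514, 410.5 and 659 TPM, against 221, 170.2, 246 and 107 TPM in young D1 libraries, without overlap. Its log2 fold change was 1.42 (SE 0.22, edgeR adjusted p = 0.00059), and all 26 alternative settings kept the call. Of 14 anchoring proteins, which place PKA near its targets, 4 were called higher and none lower in old D1, against 5.39% of all genes called higher and 5.44% lower: Akap5 (0.90), Akap9 (1.16), Akap11 (0.81) and Map2 (1.31). Earlier results of these data were known when these proteins were listed, so the count is no test of them as a set. Akap5, the anchor of the postsynaptic density, had 620.5, 644, 576 and 510.1 TPM in old D1, against 359, 308, 309 and 287 TPM in young D1 libraries. The old values were all above the young ones.

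Further down, Ppp1r1b, the PKA substrate that inhibits protein phosphatase 1, was lower in old D1 (1764 ± 367 TPM, against 3766 ± 407 TPM in young D1; SD, n = 4 each), with a log2 fold change of -1.29 (edgeR adjusted p = 0.00011). It is also a marker of all spiny projection neurons. Phosphodiesterases, which break cyclic AMP down, went both ways: Pde4b was higher (0.91) and Pde1b lower (-0.69). Crebbp, a coactivator bound by phosphorylated CREB, was higher (1.08). Crtc1, another CREB coactivator, was called lower (-0.86) although its mean TPM was higher (109 ± 52.0 TPM in old D1, against 79.0 ± 37.6 TPM in young D1), and its direction turned under limma on log2 TPM and under each GC correction. Among calcium-linked modulators Ppp3ca, a calcineurin subunit, was higher (0.98) and the calmodulin gene Calm3 lower (-1.18). Pde1b, Ppp1r1b and Calm3 changed sign under at least 1 of the GC corrections.

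In D2 neurons 1 of the 62 pathway genes was called for age, against 0.079% of all genes: Drd1, the D1 receptor, was higher, with 62.4, 53.4, 91.8 and 62.7 TPM in old D2 against 8.70, 8.14, 5.11 and 11.3 TPM in young D2 libraries (2.95, edgeR adjusted p = 2.9e-05). The summed D1 markers, Drd1 among them, were higher in the same libraries (439 to 689 TPM in old D2, against 144 to 170 TPM in young D2). Their part in this result was not tested. The age changes differed between D1 and D2 neurons for 7 pathway genes, against 1.77% of all genes. Akap9 (1.54), Pde4b (1.80), Ppp3ca (1.22), Gnal (1.005) and Akap5 (0.86) had the more positive change in D1 neurons, and Drd1 (-2.45) and Ppp1r1b (-0.996) the more negative. Drd1 itself did not fall in D1 libraries, where its mean was 418 TPM in old and 284 TPM in young ones. Between D1 and D2 neurons at 42 days 4 were called, all upstream of the cyclases. Drd1 (5.23) and the inhibitory subunit gene Gnai1 (1.91) were higher in D1, and Drd2 (-7.22) and the stimulatory subunit gene Gnas (-1.97) were lower. Gnas had 42.1, 66.3, 57.2 and 30.1 TPM in young D1 libraries against 238, 197, 263 and 149 TPM in young D2 libraries, and the groups did not overlap. At 2 years 19 of the 62 were called, 10 higher and 9 lower in D1, against 9.6% of all genes. These included the same 4 genes in the same directions.

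Genes whose pattern over the 16 libraries was most like that of each of the 10 were sought among 9705 genes with a mean of at least 5 TPM. Likeness was the root mean square difference of log2(TPM + 1), each gene centred on its own mean. Prkaca was closest to Akt1 (0.25), Rex1bd (0.34) and Rab1b (0.40), where its own spread about its mean was 1.004. Adcy1 was closest to Pa2g4 (0.27), Rab11b (0.27) and Ap3m2 (0.32), with a spread of 0.62. For the steady genes the nearest patterns were Negr1 for Adcy5 (0.18), Cacnb4 for Prkacb (0.19), Tuba1a for Prkar1b (0.18) and Gm5436 for Prkar2b (0.18), and their own spreads of 0.24 to 0.32 leave little pattern to match. Adcy3 was closest to Surf6 (0.62) and Adcy9 to Tmem19 (0.53), and Adcy2 and Adcy6 were below the minimum level.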

How the data were processed

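Ribosome-bound mRNA from 16 TRAP libraries was analysed, and 3 ribosome profiling samples of a cell line were not analysed here. Per the submitters' processing notes, STAR 2.5.1b, RSEM 1.2.20 and mm10 were used, and the deposited tables give expected counts and TPM per gene and isoform. The sources used here do not give the annotation release, trimming or strand use. The deposited expected counts are RSEM estimates, of which 20% of nonzero values were not whole, and were rounded. The deposited TPM values are scaled by effective length and by library total.

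Counts were fitted over all groups with edgeR 4.0.16 (R 4.3.3; TMM, filterByExpr, quasi-likelihood), and SEs were taken from log2 fold change over the root of F. Alternatives used DESeq2 1.42.0, limma 3.58.1 with pseudocounts of 1 and 0.1, the groups compared alone, no filter, GC and length offsets, and each library left out. Between 27484038 and 70903004 fragments per library limit the precision, and floors cover counting error only. All 10 genes were named in every contrast. Pathway genes were named when called or when they were other cyclases or PKA subunits, and likeness genes were the nearest 3. Members and lists were chosen with earlier results of these data known. GC content, structures and sequences came from GENCODE M21, which matched 37693 of the 39017 genes.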

Additional observations from a re-analysis of the deposited data

Results flagged for a closer look

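A single library stood apart from the other 3 of its group in 5 of 40 groups of 4 TPM values (gap over range above Dixon's critical value of 0.83, which chance gives in about 1 of 20 groups). They were Adcy2 in old D1 (8.31 TPM in replicate 3, against 0 to 0.09 TPM), Adcy3 in old D2 (34.56 TPM in replicate 1, against 8.37 to 12.78 TPM) and in young D2 (4.52 TPM in replicate 2, against 10.7 to 11.03 TPM), Adcy6 in young D1 (0.71 TPM in replicate 2, against 0 to 0.09 TPM) and Prkacb in young D2 (651.04 TPM in replicate 1, against 474.55 to 500.57 TPM).

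The age change differed between D1 and D2 neurons, by edgeR's test of the difference, for 7 genes of the pathway. The log2 difference was 0.86 for Akap5, -2.45 for Drd1, 1.005 for Gnal, 1.22 for Ppp3ca, 1.80 for Pde4b, 1.54 for Akap9 and -0.996 for Ppp1r1b. The adjusted p was 0.0056 for Drd1, 0.011 for Akap9 and 0.016 for Pde4b. It was 0.022 for Ppp3ca, 0.028 for Akap5, 0.028 for Ppp1r1b and 0.036 for Gnal. The call was kept in 25 of 25 alternatives for Drd1 and Akap9, 21 for Pde4b, 16 for Ppp3ca, 14 for Ppp1r1b, 12 for Akap5 and 9 for Gnal. Among isoforms Prkar1b-203 differed too (edgeR adjusted p = 0.012). Its fitted difference of 24.7 rests on groups at 0, depends on the prior count and bounds nothing. The isoform had enough counts to be tested only through old D1 libraries, where it was high, so that adjusted p is no support by itself.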

How the results depend on the processing

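Over single genes, isoforms and shares, 2782 alternative values kept their direction and side of the threshold, 187 no longer passed, 25 newly passed and 24 changed sign. No paired analysis was possible because the labels give no number that ties a library of one group to a library of another.

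For age in D1 neurons, members called numbered 3 with DESeq2, 0 with only the groups compared and 2 under each of the 3 GC and length corrections, and the pathway count was 10 with only the groups compared and 9 with the GC correction. All genes called were 2600 with DESeq2, 305 with only the groups compared, 547 with voom, 1004 with the GC correction and 825 with its trend set by genes over a log2 CPM of 5. For age in D2 neurons the pathway count was 2 with only the groups compared and 6 with voom, and all genes called were 102 with DESeq2, 39 with only the groups compared, 167 with voom and 1 with a GC trend from genes over 0. For the difference of age changes the pathway count was 13 with DESeq2, 3 with the GC correction and 2 with its trend over 5, and all genes called were 1019, 97 and 64. At 42 days D1 over D2 gave 8 pathway genes with DESeq2 and 9 with voom, and 187, 98, 203 and 36 genes in all with DESeq2, only the groups compared, voom and the GC trend over 0. At 2 years 2 members were called with DESeq2, with limma on TPM at both pseudocounts and under each GC correction, the pathway count was 11 with only the groups compared, and all genes called were 2402 with DESeq2, 354 with only the groups compared and 655 with voom. The GC trend used genes over a log2 CPM of 3; that number, and the trends over 0 and 5, were chosen after seeing the data.

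Leaving out 1 library in turn gave 909 to 2055 genes for age in D1, 5 to 18 for age in D2, 66 to 656 for the difference, 40 to 90 at 42 days and 692 to 1873 at 2 years. Members called ranged over 0 to 2, 0 to 0, 0 to 1, 0 to 0 and 1 to 2 in the same order of contrasts, and pathway genes over 13 to 19, 1 to 1, 3 to 13, 4 to 7 and 15 to 23.

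For age in D1 neurons, sign changed for Adcy5 under the GC correction (1.04) and its trends over 0 (1.39) and 5 (0.79), for Crtc1 under limma (0.40 at both pseudocounts) and the GC corrections (0.29, 0.64 and 0.036), for Pde1b (0.23 and 0.62), and, with the trend over 0, for Ppp1r1b (0.17) and Calm3 (0.47). The difference of age changes of Ppp1r1b was 0.40 with that trend. At 2 years, that trend gave 0.052 for Gnas, 0.13 for Gng7, 0.22 for Ppp1r1b and 0.28 for Calm3. Crtc1 was 0.0942 and 0.0939 under limma at the larger and smaller pseudocount and 0.15 and 0.55 under GC corrections, and Pde1b was 0.33, 0.84 and 0.052. The cause was not tested. The median of all genes for age in D1 neurons moved by 0.45 with the trend over 0, by -0.32 with voom and by -0.27 with limma at the smaller pseudocount.

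Of 18 alternatives for each isoform, 17 kept the call of Prkacb-204 for age in D1 neurons and 16 that of Prkar1b-203. At 2 years 13 kept Prkacb-204, which was lost without old D1 replicate 4 or old D2 replicate 2, 3 or 4 and with only the groups compared, 14 kept Prkar1b-203, and 3 kept Prkar2b-203 (1.37, edgeR adjusted p = 0.045). The fold bounds of Adcy6 without single libraries were added after seeing the data.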

Other observations

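The balance of catalytic to regulatory PKA subunit mRNA was lower at 2 years in both neuron types. The summed TPM of Prkaca and Prkacb over that of Prkar1a, Prkar1b, Prkar2a and Prkar2b was 0.54, 0.75, 0.59 and 0.67 in old D1 libraries, against 1.22, 0.91, 1.03 and 1.26 in young D1 libraries. It was 0.68, 0.84, 0.88 and 0.86 in old D2 libraries, against 1.27, 0.94, 1.16 and 0.96 in young D2 libraries. Old and young libraries did not overlap in D1 or in D2 neurons, although none of the 6 genes was called for age in D2 neurons. Astrocyte markers were higher in the old D2 libraries too (35.0 to 48.0 TPM, against 10.6 to 17.96 TPM in young D2), and the markers shared by all spiny projection neurons were lower in old libraries of both types (3524 to 3716 TPM in old D1, against 4796 to 5978 TPM in young D1; 6079 to 6593 TPM in old D2, against 6809 to 8297 TPM in young D2). The part of these markers was not tested. The ratio was chosen after its values were seen and was not tested. In D2 neurons Prkar2a, which helps anchor PKA, had 43.1 ± 2.42 TPM in old and 28.6 ± 6.06 TPM in young libraries (SD, n = 4 each), again without overlap. So did 7.07% of all genes in that contrast. The unadjusted p of Prkar2a in edgeR's test was not under 0.05.

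None of the 4 isoforms of Adcy3 that were examined was called by edgeR in any contrast. Adcy3-201 held 100%, 98.4%, 94.5% and 99.1% of the gene's TPM in old D1 libraries, against 0%, 34.0%, 84.1% and 0% in young D1 libraries. Old D2 libraries had 73.9%, 0%, 23.9% and 21.1%, and young D2 libraries 28.3%, 84.5%, 74.1% and 82.3%. All 4 old D1 shares lay above those of the other 12 libraries. Shares were without overlap for 11.1% of all isoforms compared for age in D1 neurons and 13.4% for D1 over D2 at 2 years. In neither contrast did the Adcy3-201 shares pass a two-sided exact permutation test (adjusted p = 0.137 in each). Some shares rest on few counts: Adcy3 had 96 in old D1 replicate 1 and 337 in young D1 replicate 4. The level of Adcy3-201 had a log2 fold change of 1.38 for age in D1 neurons (edgeR adjusted p = 0.75).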
